A study of Mus musculus with 16 samples.

Results

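Open chromatin that nearly every library of a data set shares, but that at least 1 library misses, is described here for bone marrow cells of control and diabetic mice. The peak lists of 16 ATAC-seq libraries were merged, overlapping or touching peaks on the main chromosomes being joined, and the regions called in 12, 13, 14 or 15 of the 16 libraries were taken, so members were chosen by the authors' peak calls alone. These were 16021 of 102496 merged regions (15.6%), called members below. Of them 3055 were called in 12 libraries, 3231 in 13, 3804 in 14 and 5931 in 15. A further 24955 regions were called in all 16 libraries.

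The cells were lineage-depleted bone marrow of male C57Bl/6 mice, freed of cells with the surface markers Gr1, Ter119, B220, CD4 and CD3. The submitters name them haematopoietic stem cells, but such a fraction also holds committed progenitors. There were 4 control mouse samples and 4 from mice made diabetic with streptozotocin, which the controls did not receive. Each sample was divided: 1 portion was lysed at once (baseline) and the other was kept for 6 h in culture with the cytokine IL-1β at 10 ng/mL. The 16 libraries thus form 4 groups of 4. Culture and IL-1β always came together, so a difference after IL-1β is a difference after culture with IL-1β. The labels do not say whether a mouse sample pooled animals. Gr1 marks granulocytes, yet 54 regions within 10 kb of mature neutrophil genes were called in all 16 libraries, as were 75 near stem cell genes.

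In ATAC-seq the Tn5 transposase cuts DNA that nucleosomes leave open, and a peak caller reports stretches where reads pile up over the local background. A peak is called or not called at a threshold, so a weakly open enhancer can be called in a deep library and missed in a shallow one. IL-1β binds its receptor on haematopoietic progenitors and signals through IRAK kinases to NF-κB and AP-1, the latter a dimer of Fos, Jun and related proteins that binds the motif TGANTCA. C/EBP factors, which drive granulocyte and monocyte fates, bind TTGCNNAA.

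Promoters that overlap a member whose fold enrichment rose after IL-1β are shown first, because the counts of motifs given further on turn on them. Each run is the 250 bases before a transcript start, 5′ to 3′ on the gene's strand, from RefSeq's table for GRCm38.p6, which has the coordinates of mm10 on these chromosomes. Capitals mark AP-1 matches in Sult2b1 (chr7:45742479-45742728, minus strand), Emp1 (chr6:135362681-135362930, plus), Scel (chr14:103513091-103513340, plus) and Serpinb8 (chr1:107589756-107590005, plus). In Il1r1 (chr1:40224830-40225079, plus) they mark a C/EBP match. Gm26802 (chr7:19300794-19301043, minus), a transcript that starts near Fosb, has no AP-1 match in its window. It does hold a C/EBP match on the other strand, which is left unmarked. All but Sult2b1 and Il1r1 were chosen after their values were seen.
Sult2b1: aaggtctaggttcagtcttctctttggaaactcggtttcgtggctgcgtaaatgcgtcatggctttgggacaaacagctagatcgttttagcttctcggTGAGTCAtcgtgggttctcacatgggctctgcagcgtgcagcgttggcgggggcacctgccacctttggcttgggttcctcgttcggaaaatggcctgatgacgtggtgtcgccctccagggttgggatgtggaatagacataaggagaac
Emp1: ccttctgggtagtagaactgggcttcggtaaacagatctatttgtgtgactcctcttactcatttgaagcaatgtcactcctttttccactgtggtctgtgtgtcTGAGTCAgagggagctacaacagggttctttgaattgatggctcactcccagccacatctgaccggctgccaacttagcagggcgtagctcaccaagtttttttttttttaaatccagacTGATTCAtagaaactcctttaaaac
Scel: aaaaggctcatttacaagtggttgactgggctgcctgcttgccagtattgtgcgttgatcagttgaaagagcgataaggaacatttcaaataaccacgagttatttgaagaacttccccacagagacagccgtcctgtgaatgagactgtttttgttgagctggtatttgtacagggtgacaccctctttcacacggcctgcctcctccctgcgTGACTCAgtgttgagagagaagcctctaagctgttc
Serpinb8: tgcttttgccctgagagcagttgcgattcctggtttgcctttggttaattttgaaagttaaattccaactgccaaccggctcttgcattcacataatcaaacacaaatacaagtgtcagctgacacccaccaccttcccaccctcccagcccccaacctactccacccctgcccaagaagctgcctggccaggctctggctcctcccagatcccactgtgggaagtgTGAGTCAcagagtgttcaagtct
Gm26802: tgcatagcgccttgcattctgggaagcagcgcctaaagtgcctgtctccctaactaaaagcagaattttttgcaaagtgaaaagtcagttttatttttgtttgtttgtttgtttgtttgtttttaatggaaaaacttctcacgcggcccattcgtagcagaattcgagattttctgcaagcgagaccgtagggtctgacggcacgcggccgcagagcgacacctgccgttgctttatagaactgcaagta
Il1r1: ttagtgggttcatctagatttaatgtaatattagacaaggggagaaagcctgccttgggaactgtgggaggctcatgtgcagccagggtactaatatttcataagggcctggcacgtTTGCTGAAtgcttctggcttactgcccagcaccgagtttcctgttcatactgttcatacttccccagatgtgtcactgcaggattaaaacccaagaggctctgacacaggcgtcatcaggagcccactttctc

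The AP-1 match of Sult2b1, a cholesterol sulfotransferase, began 151 bases before the start, that of Scel, sciellin, a protein of cornified epithelia, 36 bases before it, and that of Serpinb8, a serine protease inhibitor, 23 bases before it. Emp1, an epithelial membrane protein, had 2 matches, 145 and 25 bases before the start. The C/EBP match of Il1r1, the signalling receptor for IL-1, began 133 bases before its start. All of these matches lay inside the member itself. A match is a description of letters and not evidence that a factor bound.

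Members stood between the rarer regions and those called everywhere in width, fold enrichment, reads and number of summits. Their median width was 413 bp, against 692 bp for regions called in all 16 libraries and 290 bp for those called in 2 to 11. The fold enrichment that the authors' peak caller deposited, reads at the summit over local background, averaged over the libraries that called a region, had a median of 5.55 at members, 8.90 at regions of 16 calls and 4.43 at those of 2 to 11. Summit reads, recovered from the deposited values, had medians of 15.3, 38 and 10.7 in the same order. Several summits in at least 1 library were found in 25.2% of members and 56.8% of regions of 16 calls. These values moved with the number of calls that chose the members and are a description: at 11 calls, just outside, the median width was 365 bp and the median fold 5.01, at 12 calls 378 bp and 5.13, and at 15 calls 447 bp and 6.05.

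Members lay mostly away from gene ends, as did regions with fewer calls. A protein-coding gene end was within 1 kb of 1810 members (11.3%), against 39.8% of regions of 16 calls and 16.5% of all regions. At regions of 2 to 11 calls the share was 8.50%. A promoter window, from 250 bases before to 50 after a transcript start, was overlapped by 941 members (5.87%). It was overlapped by 34.5% of regions of 16 calls and 3.35% of those of 2 to 11. Gene bodies held 57.5% of members, 71.0% of regions of 16 calls and 57.2% of those of 2 to 11. The exon structure was not used here, so a position within a gene body is given as such. The promoter windows at members had a median G+C content of 55.7% and a median ratio of observed to expected CpG of 0.44. Windows at regions of 1 to 11 calls had 56.7% and 0.46, those at regions of 16 calls had 62% and 0.80, the make-up of CpG island promoters, and those at no region had 47.7% and 0.22. ETS motifs (CCGGAAGT, either strand), typical of such CpG-rich promoters, stood in 1.78% of windows at members, 9.48% of those at regions of 16 calls and 3.89% of all 32817 windows. At regions of 1 to 11 calls 1.17% of windows held them.

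A large part of the missing calls lay in 2 libraries. Over all members 35452 calls were missing. Replicate 2 of the control IL-1β group missed 8744 members (54.6%), and replicate 4 of the diabetic baseline group missed 5821 (36.3%). Together these 2 libraries held 41.1% of all missing calls, and 4213 of the 5931 members missed by a single library (71.0%) were missed by one of them. The other 14 libraries missed between 0.58% (control baseline replicate 3) and 23.0% (diabetic IL-1β replicate 3) of the members.

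List length, the number of peaks called in a library, mostly went with these shares, and 1 library stood apart from its neighbours in length. Lists ran from 37543 peaks in control IL-1β replicate 2, which missed the most members, to 72525 peaks in control baseline replicate 3, which missed the fewest. Diabetic baseline replicate 4 had 53633 peaks, the 8th shortest list, yet came second in missing calls. Its neighbours in length, control baseline replicate 4 with 52477 peaks and control IL-1β replicate 4 with 57434, missed 10.8% and 6.35%. When each list was cut to its 37543 peaks of highest −log10 q and the rule was applied anew, 9278 regions had 12 to 15 calls. Of these, diabetic baseline replicate 4 missed 42.7% and control IL-1β replicate 2 missed 19.0%, within the 5.34% to 20.7% of the other libraries. The background level of diabetic baseline replicate 4 (the lowest local background that the peak caller used in a library) was the lowest of the 16, at 0.856 reads against 1.05 to 1.71 in the others. Control IL-1β replicate 2, which missed the most members, had 1.30 reads, inside that range.

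**Figure D1:**
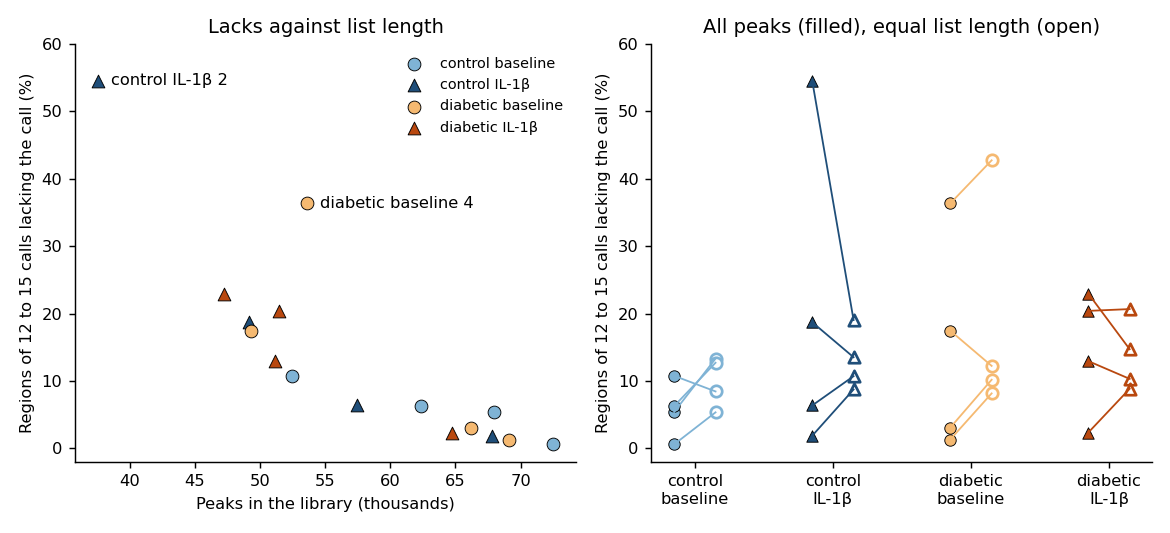
Share of the 16021 members that each of the 16 libraries lacked, against its number of peaks (left), and by group with all peaks (filled) and with every list cut to 37543 peaks and the rule applied anew (open; right). Points are libraries, and lines join the 2 values of a library: control IL-1β replicate 2 fell from 54.6% to 19.0%, while diabetic baseline replicate 4 went from 36.3% to 42.7%.

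By group, control baseline libraries missed 5.75% ± 4.17 of the members (mean ± SD, n = 4), control IL-1β libraries 20.4% ± 23.9, diabetic baseline libraries 14.5% ± 16.2 and diabetic IL-1β libraries 14.7% ± 9.25. Missing calls numbered 13000 at baseline and 22452 after IL-1β. Members missed by IL-1β libraries alone numbered 6336 (39.5%), those missed by baseline libraries alone 3128 (19.5%), and 6557 were missed in both states. The groups overlapped: baseline libraries spanned 0.58% to 36.3% with a median of 5.83%, and IL-1β libraries 1.85% to 54.6% with a median of 15.8%. Without the 2 libraries the shares were 6.4% ± 5.97 at baseline and 12.2% ± 8.80 after IL-1β (n = 7 each). Within mice, the IL-1β portion missed more members in 3 of 8, and the portion with the shorter list missed more in 5 of 8. The 3 mice in which IL-1β portions missed more were control 2, control 3 and diabetic 3, whose IL-1β lists were shorter than their baseline lists by 24808, 23348 and 21895 peaks.

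A member missed by all 4 libraries of a group and called in all 12 others was rare, with 6 cases. The diabetic IL-1β group lacked regions within Myb, a transcription factor of haematopoietic progenitors, within Sptbn1, a spectrin, and 25589 bp from Creg1. The diabetic baseline group lacked 1 within Cabin1, and the control IL-1β group lacked 1 within Atp10a and 1 at 17367 bp from Adamts18. Where called, the summit reads were 7 to 41 at the Myb region, 14 to 33 at Sptbn1, 10 to 35 at Creg1, 6 to 23 at Cabin1, 6 to 16 at Atp10a and 6 to 19 at Adamts18. The Myb region had scaled folds of 3.06 to 6.95 in the 8 baseline libraries and 2.75 to 4.91 in the 4 control IL-1β libraries, which overlap. For a region of 12 calls, Fisher's exact test of 8 libraries against 8 cannot give a two-sided p under 0.0769, and of 4 against 4 under 0.0286. These regions were picked for their pattern of calls, so the calls were not tested.

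Which genes lay near the missed regions differed between the 2 libraries. A region can be a member because a single library missed it. Diabetic baseline replicate 4 alone missed 1866 members, and control IL-1β replicate 2 alone missed 2347. The shares by gene list are therefore a description of the calls that chose the members. Mature neutrophil genes, which encode granule proteins and chemotaxis receptors, had 33 members within 10 kb, and diabetic baseline replicate 4 missed 29 of them (87.9%). It missed 81.8% of 33 members near granulocyte-monocyte progenitor genes such as Spi1, the gene for PU.1, and the C/EBP genes, and 73.9% of 23 near cytokine and chemokine genes. Lists not of a lineage were also high: sterol synthesis 61.5%, AP-1 and immediate early 58.8%, glucose uptake and glycolysis 58.3% and glucocorticoid response 57.1%. Near monocyte and macrophage genes it missed 5 of 14 (35.7%). At erythroid genes, which include the globins and their regulators, it missed 5 of 32 (15.6%), and at stem cell genes 25 of 75 (33.3%), against 36.3% of all members. The other 14 libraries missed 0% to 21.2% of the neutrophil members. Of the same mouse, the IL-1β portion missed 21.2% of neutrophil members, close to its 20.4% over all members.

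Control IL-1β replicate 2 differed in which lists it missed. It missed 7 of 33 neutrophil members (21.2%), well under its 54.6% over all members, but 23 of 25 near dendritic cell genes (92.0%) and 8 of 9 near B cell genes (88.9%). At erythroid genes it missed 46.9% and at interferon genes 36%, where diabetic baseline replicate 4 missed 15.6% and 28%. These 2 lists were under the share of all members in both libraries. So were stem cell members (53.3% and 33.3% in the same order) and megakaryocyte members (46.2% and 30.8%). Of the dendritic cell and B cell members, diabetic baseline replicate 4 missed 28% and 33.3%. None of the other 14 libraries missed more than 20% and 22.2% of them. In bulk samples, fewer cells of a type and less open chromatin per cell cannot be told apart.

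**Figure D2:**
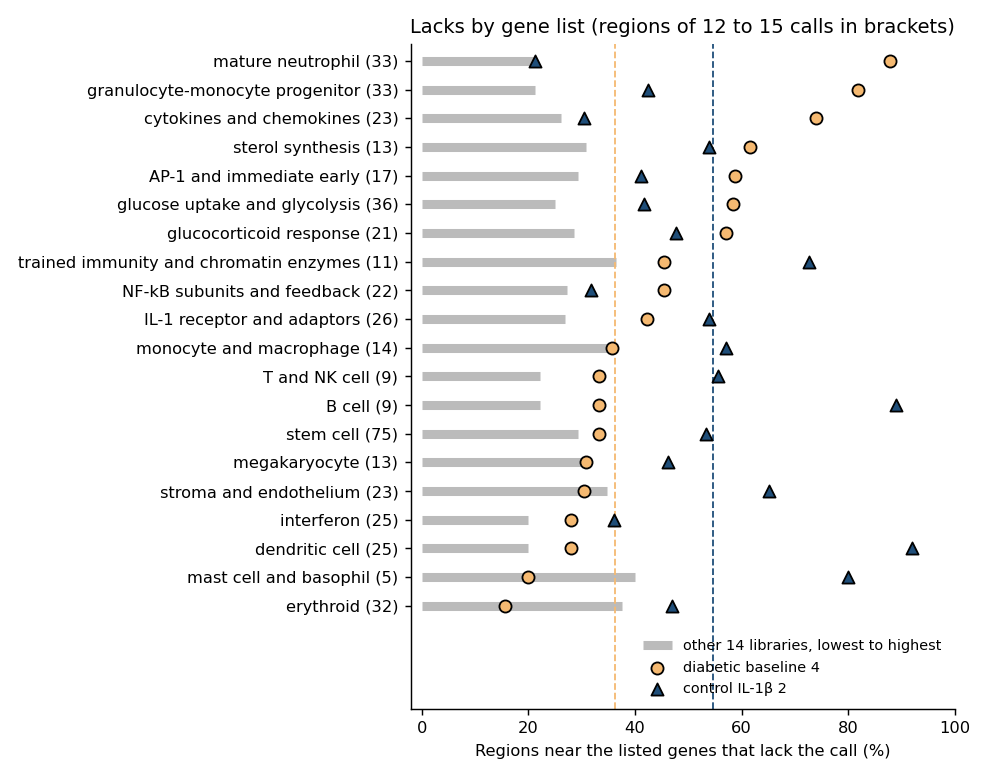
Share of the members near the genes of 20 lists (number of members in brackets) that diabetic baseline replicate 4 (circles), control IL-1β replicate 2 (triangles) and the other 14 libraries (bars, lowest to highest) lacked. Dashed lines give the share over all members in the 2 libraries, 36.3% and 54.6%; the circle for neutrophil genes stands at 87.9% and the triangle for dendritic cell genes at 92.0%.

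Regions called in all 16 libraries, which the rule did not use, gave a second look at both libraries. At 54 such regions near neutrophil genes, summit reads in diabetic baseline replicate 4 averaged -0.47 on the log2 scale relative to the median of all regions of 16 calls, below the 0.04 to 0.42 of the other 14 libraries. At 43 regions near granulocyte-monocyte progenitor genes it had -0.41 against 0.01 to 0.21, and at 46 near erythroid genes 0.46 against -0.68 to 0.27. It was also below the other 14 at regions near cytokine and chemokine genes (-0.38 against -0.20 to 0.04), T and NK cell genes (-0.18 against -0.10 to 0.23), IL-1 receptor and adaptor genes (0.07 against 0.13 to 0.25), glycolysis genes (0.14 against 0.26 to 0.41) and glucocorticoid response genes (0.30 against 0.33 to 0.49). In all it lay outside the other 14 in 8 of 20 lists, below them in 7. Control IL-1β replicate 2 lay outside them in 5 lists, above them in 4. It stood highest of all libraries at the neutrophil regions, at 0.52, and was above the other 14 at glycolysis (0.48), glucocorticoid response (0.51) and megakaryocyte regions (0.00 against -0.26 to -0.01). It was below them at stroma and endothelium regions, at -0.612 against -0.606 to -0.305, and within them at dendritic cell regions, at -0.21 against -0.25 to -0.03. The fold enrichment did not show the difference at the neutrophil regions, where diabetic baseline replicate 4 had -0.44 and the other 14 libraries -0.57 to -0.34. Its local background there was also low, at 0.01 against 0.55 to 1.17 in the other 14. The part of cell make-up in the missing calls was not tested.

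The change with IL-1β was fitted with limma on the log2 fold enrichment of the libraries that called a region, each centred on its median over regions of 16 calls. A library without a call gave no value, and a region needed 2 calls in every group, so 15498 of the 16021 members were tested together with 24955 regions of 16 calls, and 523 members were not. The p-values were adjusted by Benjamini-Hochberg over all 40453 regions, with a threshold of 0.05. Fold enrichment rose with IL-1β at 464 members (2.99%), where 3.18% of all tested regions rose, and fell at 365 (2.36%), where 2.06% of all fell. The members' shares were thus near the background. In data simulated for this contrast over all mice and all 40453 regions, the fit found 96 of 100 regions changed by 1 on the log2 scale. It found 49 of 100 changed by 0.5. Recovery among members alone, where a missing call goes with a low fold, was not tested. The contrasts of 4 against 4 libraries were not simulated. Called changes of members ran from 0.27 to 1.51 on the log2 scale for rises and from -1.17 to -0.30 for falls. The median over members was -0.04, over all tested regions 0.01 and over regions of 16 calls 0.04. Without centring, the median of all regions moved from 0.01 to -0.12 and the split turned, with 147 members risen and 719 fallen (17.0% risen, against 56.0% with centring). All changes below are relative to the centred median.

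Missing calls lay on the side of the lower fold. A call is itself a threshold on reads over local background, and every member lacks at least 1 call. This direction therefore follows largely from the choice of members and is a description. The 464 members that rose had 905 missing calls, of which 80.1% were in baseline libraries, and 271 of these members (58.4%) were missed by diabetic baseline replicate 4, against 36.1% of members not past the test. The 365 members that fell had 652 missing calls, of which 79.1% were in IL-1β libraries. Without diabetic baseline replicate 4 the counts were 558 rises and 504 falls, including 443 of the 464 and 340 of the 365. Without both libraries they were 489 and 424, including 408 and 309.

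The 10 largest rises were at regions missed by baseline libraries alone, a side that the choice of members favours. A region 14808 bp from Slc4a1ap (chr5:31576563-31577050) had scaled folds of 3.35 to 3.75 in the 5 baseline libraries that called it, with a median of 3.49, and of 8.06 to 12 in all 8 IL-1β libraries, with a median of 10.5. The groups did not overlap, and the log2 change was 1.51 ± 0.12 (SE; limma adjusted p = 1.82e-06). It was missed by control baseline replicate 2 and by diabetic baseline replicates 1 and 4.

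Within Arhgef3, a guanine nucleotide exchange factor, folds were 2.99 to 6.54 at baseline (6 libraries) and 8.45 to 11.9 after IL-1β, a log2 change of 1.30 ± 0.14. Within Rac1, a small GTPase of the cytoskeleton and the phagocyte oxidase, the region (chr5:143518024-143518603) lacked a call in diabetic baseline replicate 4 alone. Its folds were 4.04 to 6.27 in 7 baseline libraries and 10.0 to 12.8 in 8 IL-1β libraries, a log2 change of 1.10 ± 0.10 (limma adjusted p = 2.41e-06). The Rac1 change was 0.92 in control and 1.28 in diabetic samples, each past the threshold.

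Regions within Agfg2 (1.22), Dop1b (1.17), Zfand2a (1.12) and Foxp1 (1.10), a transcription factor of blood cells, and regions near Cd9 (1.06), a tetraspanin, and Rem2 (1.03), a small GTPase, also rose on the log2 scale. At the Sult2b1 promoter shown above, folds were 2.82 to 4.69 in 6 baseline libraries and 7.21 to 9.0 in 8 IL-1β libraries, a log2 change of 1.03 ± 0.13 (limma adjusted p = 9.43e-05). In none of these 10 regions did the states overlap.

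The 10 largest falls were at regions missed by IL-1β libraries alone, again the side that the choice of members favours. Within Mbnl2, a splicing regulator, folds were 6.01 to 12.9 with a median of 10.3 in 8 baseline libraries and 3.67 to 5.65 with a median of 4.28 in 7 IL-1β libraries (chr14:120341875-120342327). The log2 change was -1.17 ± 0.14 (limma adjusted p = 4.04e-05), and only control IL-1β replicate 4 had no call. Within Uvrag, a protein of autophagy and endosome traffic, folds were 8.96 to 15.1 at baseline and 4.62 to 6.27 after IL-1β, a log2 change of -0.98 ± 0.11. Diabetic IL-1β replicate 3 alone lacked it.

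The others were within Ncam2 (-1.05), an adhesion molecule, Fam171a1 (-1.0), Cacna1d (-0.91), a calcium channel subunit, Gpc6 (-0.85), a glypican, Ldlrad4 (-0.83) and Zswim4 (-0.83), and near Hs1bp3 (-1.0) and Doxl2 (-0.92). At Cacna1d alone the states overlapped, because diabetic baseline replicate 4 had 6.01 while the other 7 baseline libraries had 11 or more. Control IL-1β replicate 2 missed 8 of these 10 regions. The 20 named rises and falls were chosen as the largest past the threshold in these data. All kept their direction and stayed past it in every alternative that gave them a value. Only 9 had a value when 3 calls were needed in each group, and 5 with a −log10 q of at least 5.

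**Figure D3:**
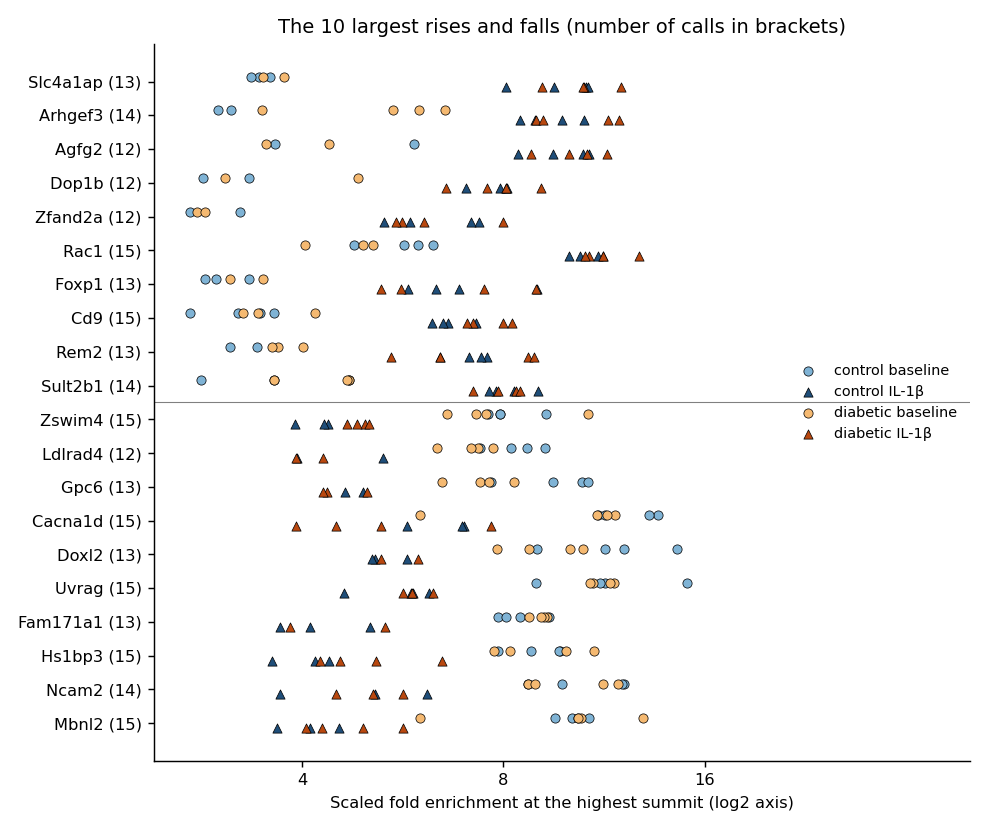
Scaled fold enrichment at the highest summit of the 10 members with the largest rises (top) and the 10 with the largest falls (bottom) in each library that called them, on a log2 axis. Circles are baseline and triangles IL-1β libraries; the states are apart in every row except Cacna1d, where 1 diabetic baseline library stands at 6.01.

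Members near genes of the IL-1 pathway moved both ways. Of 26 tested members within 10 kb of IL-1 receptor and adaptor genes, 2 rose (7.69%, against 3.18% of all tested regions) and 3 fell (11.5%, against 2.06%), with a median log2 change of -0.05. The Il1r1 promoter region (chr1:40224799-40225227) had folds of 4.37 to 7.15 with a median of 5.31 at baseline and of 6.20 to 9.14 with a median of 7.99 in 7 IL-1β libraries, which overlap. Its log2 change was 0.48 ± 0.13 (limma adjusted p = 0.0297). Within Irak2, a kinase of the receptor complex, 1 region fell by 0.53 and another rose by 0.69 on the log2 scale. The remaining falls were 6367 bp from Ikbkb (-0.59), a kinase that releases NF-κB, and within Il18r1 (-0.45), a receptor of the same family.

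Of 20 members near genes of NF-κB subunits and their feedback inhibitors, 1 rose, within Traf1, an adaptor that NF-κB induces. Traf1 folds were 2.82 to 4.70 in 6 baseline libraries and 4.46 to 6.58 in 8 IL-1β libraries, which overlap slightly, a log2 change of 0.52 ± 0.13 (limma adjusted p = 0.0208). Its summit reads had a log2 change of 1.45, over a local background that went from a median of 2.64 to 5.72 reads. None of 23 members near cytokine and chemokine genes passed. The nearest were a region near Osm with a log2 change of 0.36 (limma adjusted p = 0.0554), 1 near Med11 and Cxcl16 with 0.35 and 1 within Csf3 with -0.42.

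Near AP-1 and immediate early genes, 6 of 16 members rose in fold enrichment and 0 fell, against 3.18% of all regions risen, but summit reads did not follow at most of them. The list holds genes that switch on within minutes of many signals, among them the handling of cells. Near Fosb, an AP-1 subunit, folds were 2.30 to 3.52 in 6 baseline libraries and 4.47 to 6.04 in 8 IL-1β libraries, a log2 change of 0.95 ± 0.11 (limma adjusted p = 5.15e-05). Summit reads of that region, scaled between libraries, fell from a median of 35.5 to 22.7. Its local background had a median of 11.8 reads (10.7 to 14.3) at baseline and of 4.07 (3.02 to 5.01) after IL-1β, a log2 change of -1.62. On reads the limma log2 change was -0.57 ± 0.14 (adjusted p = 0.00979), the opposite direction.

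Recovered reads divided the 6 rises of this list. Nr4a2, an orphan nuclear receptor, had log2 changes of 0.71 in fold and 1.24 in reads, and Ier3, an early response gene, 0.56 and 0.99, and these 2 also passed the test on reads. Ier2 had 0.73 in fold and 0.22 in reads, Jund 0.36 and -0.12, and Zfp36, which destabilizes cytokine mRNAs, 0.31 and -0.18, none of them past the test on reads. A region 1380 bp from Fos did not pass in fold (0.16) but fell in reads by 1.12 on the log2 scale (limma adjusted p = 7.86e-08). On reads the list had 2 rises and 2 falls. The local background was lower after IL-1β at 9 of these 16 members (56.2%), against 15.7% of all tested members, whose background had a median log2 change of 0.17. Without centring the list had 3 rises in fold and 0 falls.

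Over all members the 2 measures mostly had the same sign (12971 of 15498 tested). They are not independent, because the reads were recovered from the deposited values and are a term of the fold. Of 464 rises in fold, 411 also rose in reads and 4 fell. Those 4, named after their values were seen, were at Fosb, within Trem1, a receptor of myeloid cells (fold 0.65, reads -0.53), within Anxa1 (0.57 and -0.43), an annexin of inflammation, and 11966 bp from Fos (0.45 and -0.40). Of 365 falls in fold, 210 fell and 0 rose in reads. The test on reads called 911 members risen and 393 fallen.

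**Figure D4:**
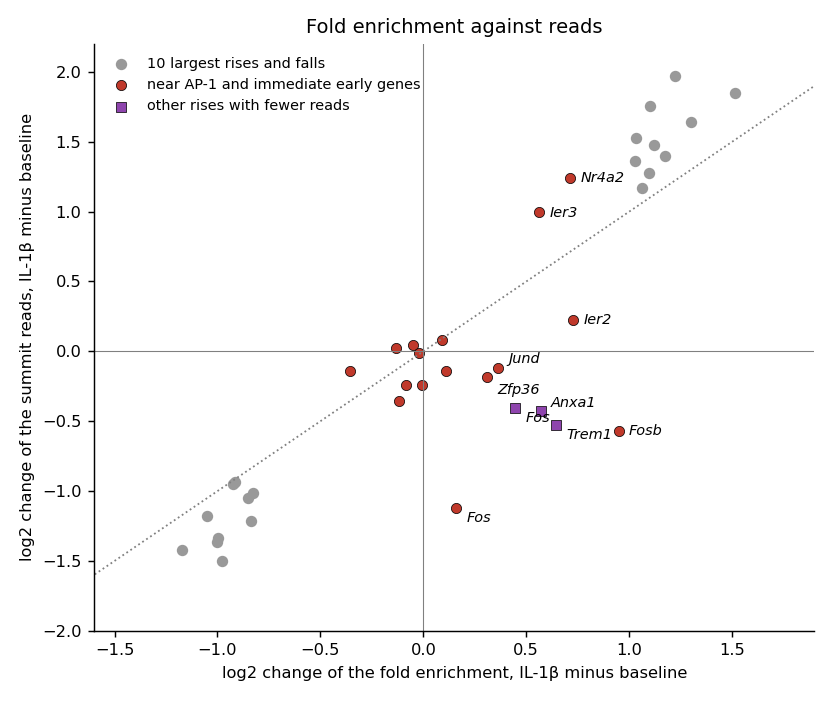
Change with IL-1β of the fold enrichment (x axis, log2) against that of the recovered summit reads (y axis, log2) for the 10 largest rises and 10 largest falls (grey), the 16 tested members near AP-1 and immediate early genes (red) and 3 other rises whose reads fell (squares); the dotted line marks equal change. The grey points have the same sign on both axes, while Fosb stands at 0.95 in fold and -0.57 in reads.

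Stem cell genes had 72 tested members, of which 5 rose (6.94%, against 3.18% of all tested regions) and 2 fell (2.78%, against 2.06%). Within Cdk6, a cyclin-dependent kinase that takes stem cells out of quiescence, folds were 2.26 to 4.34 in 7 baseline libraries and 4.97 to 6.68 in 8 IL-1β libraries (chr5:3501596-3502130). The log2 change was 1.01 ± 0.12 (limma adjusted p = 5.63e-05) and the states did not overlap. Within Runx1, a master regulator of blood formation, a region fell by 0.61 and another rose by 0.61 on the log2 scale. The other changes were 2 rises within Fli1 (0.59 and 0.57) and 1 within Erg (0.65), both ETS factors, and a fall within Meis1 (-0.69), a homeobox factor of stem cells. These 7 members had the same sign in reads and passed that test, which is not independent of the test on fold.

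Among lineage lists, 2 of 32 tested neutrophil members rose (6.25%, against 3.18% of all tested regions). At this size of list, 1 member more or less moves the share by about as much as the background itself. They were at Ngp, a granule protein gene (0.49, limma adjusted p = 0.000867), and 918 bp from Rufy4 and close to Cxcr2, a neutrophil chemokine receptor (0.53, limma adjusted p = 0.0151). Diabetic baseline replicate 4 called neither. Ngp folds were 2.15 to 2.63 in the other 7 baseline libraries and 2.84 to 3.96 after IL-1β, without overlap. Of 13 monocyte and macrophage members 2 fell (15.4%, against 2.06% of all tested regions), within F13a1 (-0.71), the clotting factor XIII chain of monocytes, and at Fcgr1 (-0.45), a high-affinity receptor for IgG. Of 30 erythroid members 1 fell (3.33%), within Sox6 (-0.55), a repressor of embryonic globin.

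Of 9 B cell members 2 rose (22.2%, against 3.18% of all tested regions), within Dntt (0.86), which adds bases to antigen receptor joints, and Il7r (0.68), a receptor of lymphoid progenitors. Without diabetic baseline replicate 4, 1 of 8 tested rose. None of 32 granulocyte-monocyte progenitor, 25 dendritic cell, 13 megakaryocyte, 9 T and NK cell or 5 mast cell and basophil members passed. Of 22 stroma and endothelium members 1 rose, within Runx2 (0.50). A region of the interferon list, within Perm1 and close to Isg15, fell (-0.57), as 1 of 25.

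Near metabolic and chromatin genes few members passed, in lists of 11 to 36 tested members. Over all tested regions 3.18% rose and 2.06% fell. Of 36 members near genes of glucose uptake and glycolysis 1 rose (2.78%), within Hk3 (0.61, limma adjusted p = 0.00305), a hexokinase of myeloid cells. Hk3 folds were 2.70 to 3.60 in 7 baseline libraries and 3.88 to 6.44 in 8 IL-1β libraries. Of 13 sterol synthesis members none passed. Of 19 near glucocorticoid response genes 2 rose (10.5%), both within Zbtb16 (0.65 and 0.56), and 1 fell (5.26%), within Nr3c1 (-0.49), the glucocorticoid receptor. Of 11 near genes of trained immunity and chromatin enzymes 1 fell (9.09%), within Tet2 (-0.62), a methylcytosine oxidase.

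Of these 34 list members past the threshold, 20 stayed past it in every omission of 1 library that gave a value. Among them were the Fosb, Ier2, Nr4a2, Cdk6, Runx1, Ngp, F13a1, Dntt, Il7r and Hk3 regions. For Ier2, Dntt and 1 Runx1 region, 14 of the 16 omissions gave a value. All 34 kept their direction. Ier3 was not past it without diabetic baseline replicate 3 (limma adjusted p = 0.0699), 1 Fli1 region without control baseline replicate 3 (0.0619), the Rufy4 region without diabetic baseline replicate 2 (0.057) and Traf1 without either of the last 2 libraries (up to 0.0803). Il1r1, Ikbkb, Il18r1, Zfp36, Fcgr1, Sox6, Runx2, Nr3c1 and 1 Zbtb16 region each failed in 4 to 11 of the omissions, with limma adjusted p-values up to 0.122. With the mouse as a block 7 were not past it: Ikbkb (limma adjusted p = 0.0656), Il18r1 (0.327), Fcgr1 (0.0849), Sox6 (0.0878), Runx2 (0.338), Nr3c1 (0.12) and Tet2 (0.0525).

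Promoters at members that rose held the AP-1 motif more often than promoters at other members. TGANTCA, searched in the 300 bases of each window and the same on both strands, stood at 11 of 26 risen members that overlap a promoter (42.3%), at 2 of 17 that fell (11.8%) and at 66 of 875 not past the test (7.54%). Over windows in place of regions, which count a region with several starts more than once, the shares were 13 of 30 (43.3%), 2 of 17 and 70 of 994 (7.04%). The motif stood in 7.81% of all 32817 promoter windows. At regions of 16 calls it stood at 33 of 252 that rose (13.1%) and 418 of 8324 not past the test (5.02%). TTGCNNAA stood at 8 of 26 risen members (30.8%), 122 of 875 not past the test (13.9%) and in 10.8% of all windows. The 14 motifs searched were chosen with values known, and no test was made. A form of the NF-κB site stood at 0 of the 26 and at 5 of the 875. The windows at risen members had a median G+C content of 52.7%, those at members not past the test 56.2%.

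At Emp1 folds were 3.37 to 5.56 in 7 baseline and 6.41 to 8.58 in 8 IL-1β libraries, at Scel 3.41 to 5.36 in 5 and 5.54 to 10.5 in 8, and at Serpinb8 4.50 to 6.72 in 6 and 7.69 to 11.2 in 8. None of the 3 overlapped between states, and their log2 changes were 0.83, 0.82 and 0.82.

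**Figure D5:**
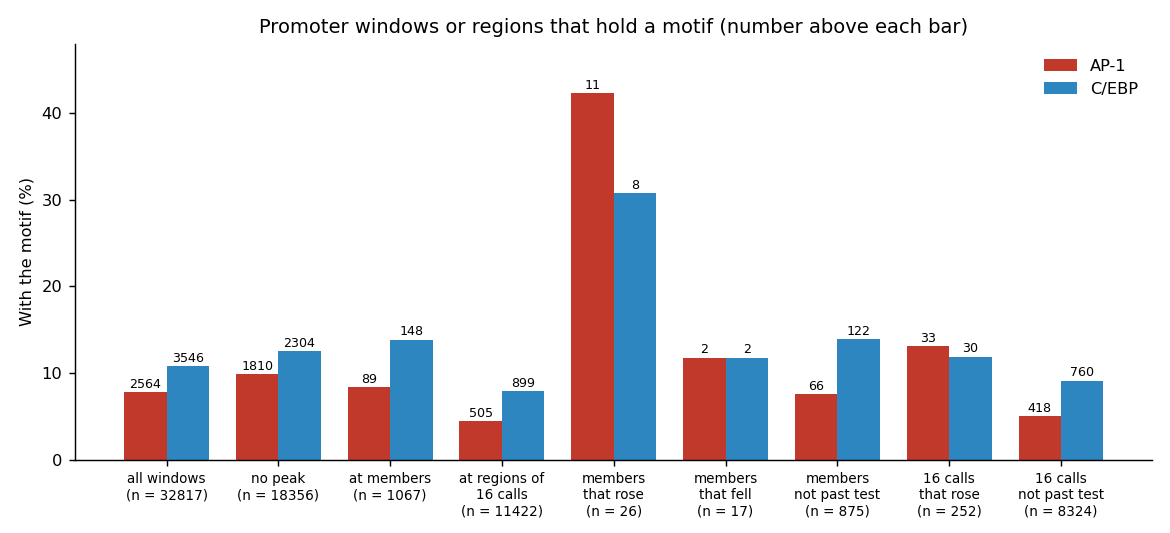
Share of promoter windows (first 4 groups) and of regions that overlap a promoter window (last 5 groups) holding an AP-1 motif (TGANTCA) or a C/EBP motif (TTGCNNAA) on either strand, with the number that hold it above each bar. The AP-1 bar stands at 42.3% for the 26 members that rose and at 7.54% for the 875 not past the test.

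Within each phenotype, IL-1β changed fewer members past the threshold. In control samples 102 rose, where 0.616% of all tested regions rose, and 61 fell, where 0.344% fell. In diabetic samples 50 rose, where 0.282% of all regions rose, and 24 fell, where 0.111% fell. The difference of the change between phenotypes was past the threshold at 0 members and 0% of all regions in limma, with 298 members higher and 386 lower at an unadjusted p under 0.05. Different counts in control and diabetic samples are therefore not shown to differ by that test.

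Diabetic and control samples differed at 0 members at baseline, where 0% of all regions passed limma, with 873 higher and 671 lower at an unadjusted p under 0.05 and a smallest adjusted p among members of 0.278. After IL-1β they again differed at 0 members and 0% of all regions, with 356 higher and 485 lower at an unadjusted p under 0.05.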

How the data were processed

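Nuclei from 50000 cells a replicate were treated with Tn5 and read from 1 end over 50 bases, per the labels' protocols. The submitters' processing notes give mm10 as build and name MACS2 2.1.1, edgeR, Bowtie2 2.2.6, Trim Galore 1.8, DiffBind 2.4.8 and FastQC 0.11.3; their settings, the handling of duplicates and any shift of Tn5 cut sites are not given in the sources used here. The authors deposited 1 peak list per library. Each line of a deposited list gives a display score, a ratio (fold enrichment at the summit), its −log10 p-value, its −log10 q-value (1.30 or more) and the summit's offset. The fold enrichments and p and q values are the authors'; read depth is not in these lists.

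From the fold and the −log10 p, summit reads and local background were recovered as whole reads (within 0.001) for at least 99.9987% of lines in each library, and for 5000 of 5000 simulated summits. Regions were merged, annotated with RefSeq genes of GRCm38.p6 (gene body within 50 kb for the nearest gene, within 10 kb for 20 lists of 386 symbols, 383 matched) and fitted with limma 3.58.1 in R 4.3.3: log2 of the highest fold per region and library, centred by library, 4 group means, trend, Benjamini-Hochberg over all regions. "Scaled" folds are centred and put back at the mean library median. Named were the 10 largest rises and falls (1 per gene), up to 3 members per list by p, and members missed by 1 whole group; further members past the threshold in a list were named after their values were seen. 1 list member past the threshold is not reported here, though the counts over all lists include it. The members, lists and motifs were chosen with earlier results of these data known. Nothing in the labels says whether a replicate is 1 animal, so p-values measure the spread between these samples.

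Same-numbered baseline and IL-1β libraries come from the same mouse sample by design; their deviations from group means correlated at 0.23, 0.10, 0.02 and 0.01 in control and at 0.14, 0.07, -0.04 and 0.12 in diabetic samples. In data simulated over all 40453 regions, 4 of 40253 unchanged regions were called. The rate among members alone was not tested.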

Additional observations from a re-analysis of the deposited data

Results flagged for a closer look

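In 100 groups of 4 values examined, 7 held a sample far from the others by Dixon's criterion. Chance exceeds it in about 1 group in 20 where values are independent and normally spread, which these shares are not. Shares of missing calls rest on the calls that chose the members, and the Cacna1d region was named for its large fall. The flags are therefore a description. Diabetic baseline replicate 4 stood apart in 3 of them: it missed 87.9% of members near mature neutrophil genes (next highest of its group 3.03%) and 81.8% near granulocyte-monocyte progenitor genes (next 12.1%), and its scaled fold at the Cacna1d region was 6.01 (next lowest 11). Control IL-1β replicate 2 missed 92.0% of members near dendritic cell genes, the next of its group 12%. The other 3 lay among control baseline libraries and rest on 1 member each: replicate 4 missed 4.35% near cytokine and chemokine genes and replicate 1 missed 3.03% near mature neutrophil genes, where the others missed 0%, and replicate 1 missed 0% near glucocorticoid response genes, where the others missed 4.76%.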

How the results depend on the processing

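Of the counts given for all mice, 464 rises became 147 without centring, 911 on recovered summit reads, 307 with the mean of a region's lines and 213 with a −log10 q of at least 5, and 365 falls became 719 without centring and 185 at that q. In control samples 102 rises became 23, 309, 57 and 54 in that order, and 61 falls became 124 on reads. In diabetic samples 50 rises became 5, 222, 33 and 22, and 24 falls became 13, 55, 15 and 6, and 43 without the 2 libraries that missed most. The cause of these shifts was not tested, but the setting on q tests fewer regions. With the mouse as a replicate block the counts were 489 and 499 and none moved by over 1.5 times. On reads the Fosb region turned to -0.57, and that of Nfkbiz, not past the threshold in fold (0.20), to -0.44. Leaving out 1 library at a time gave 259 to 558 rises and 219 to 504 falls, 35 to 128 and 23 to 104 in control, 8 to 56 and 2 to 33 in diabetic samples, 0 to 0 for the difference of the change, and 0 to 1 (baseline) and 0 to 0 (after IL-1β) for diabetes. Rises in all mice moved by over 1.5 times without diabetic baseline replicate 3 (259), and falls without control baseline replicate 3 (221), control IL-1β replicate 4 (236) or diabetic baseline replicate 3 (219). The missing share after IL-1β minus baseline was 2.08 to 11.1 percentage points, that of diabetic minus control 1.53 to 13.2 at baseline and -11.9 to 5.68 after IL-1β. The difference of the IL-1β change was -20.7 to -3.11, and 4.16 without the 2 libraries against -14.5 with them. Without read totals, a missing call cannot be set against depth.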
